A study of Mus musculus with 11 samples.

Results

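Chromosomal domains in which no messenger RNA is listed as changed were taken from a deposited table of non-coding RNA features in the mouse retina. The table assigns each feature to a topologically associating domain (TAD) or to a stretch between such domains (interTAD), and lists beside it the mRNAs recorded as lower or higher in that domain. A feature was a member if it stood once in the table and both mRNA lists were marked NA. This rule uses no value of the non-coding features, and it gave 17176 of 36097 features, in 1680 of 2920 domains. The labels and headers do not say how the domains and mRNA lists were made, so a domain without a listed mRNA is not shown to be free of change in its mRNAs.

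The retinas came from mice at postnatal day 21, and the libraries were made from RNA depleted of polyadenylated transcripts and read as stranded 50-bp single-end reads. The groups were Nrl knock-out, with 6 libraries, and wild-type, with 5 libraries. The labels give no strain, sex or breeding, and they number libraries, not animals, so the spread behind each p-value may be technical. At the Nrl locus a non-coding feature, MSTRG.28375, was listed at 0 in 5 Nrl knock-out libraries and at 0.758 normalised counts in the other, and stood between 33.3 and 55.5 in the 5 wild-type libraries, so each library matched its label at that feature.

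Listed features held 3374221 to 4876429 reads in Nrl knock-out libraries and 3238184 to 4150460 in wild-type libraries. The upper limit behind a listed 0 was 3 reads, worth 2.28 to 3.12 normalised counts in Nrl knock-out libraries and 2.78 to 4.11 in wild-type libraries, for counting error only. Across the log2 values of the 9938 member features with a mean of at least 5 normalised counts, pairs of libraries correlated at 0.887 to 0.941 within the Nrl knock-out group, 0.880 to 0.944 within the wild-type group and 0.758 to 0.837 between the groups.

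Topologically associating domains are stretches of chromosome that contact themselves more than their surroundings, and enhancers and the promoters they act on usually lie within the same domain. Nrl is a transcription factor that commits photoreceptor precursors to the rod fate and that, with Crx, binds regulatory DNA of rod genes. Photoreceptors of the Nrl knock-out retina are known to take on features of short-wavelength cones. Long non-coding RNAs, antisense transcripts and enhancer RNAs are often transcribed from active regulatory regions and often restricted to a cell type, and many are spliced poorly or lack a poly(A) tail.

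RefSeq promoter windows (assembly GRCm38.p6, 250 bases before to 50 after an annotated start) held the transcription start of 148 tested member features. Across all 21395 tested features, 28.1% were called, 15.6% higher and 12.6% lower in Nrl knock-out. Of the 148 features with a start in a window, 15 were higher in Nrl knock-out, 16 lower and 117 not called. Windows are shown for 4 of them, a pair of annotated non-coding RNAs and a pair of features read outward from the promoter of a coding gene, each pair with 1 feature higher and 1 lower in Nrl knock-out. They were chosen after their values were seen. Capitals mark TAATCC, the core bound by CRX and OTX2, and TGCTGA, a part of the MAF recognition element bound by NRL, each sought on both strands, so that a match on the other strand reads GGATTA or TCAGCA. The motifs share no letters in any of these windows. Gm2233, a non-coding RNA of chromosome 13, is read on the plus strand (chr13:43948626-43948925). The Syne3 window lies on the minus strand (chr12:104998628-104998927), and its member feature is read on the opposite strand. The Gm29904 window lies on the plus strand of chromosome 15 (chr15:61292815-61293114). The Pcdh15 window is on the plus strand (chr10:73821617-73821916), with its member feature on the opposite strand.
Gm2233: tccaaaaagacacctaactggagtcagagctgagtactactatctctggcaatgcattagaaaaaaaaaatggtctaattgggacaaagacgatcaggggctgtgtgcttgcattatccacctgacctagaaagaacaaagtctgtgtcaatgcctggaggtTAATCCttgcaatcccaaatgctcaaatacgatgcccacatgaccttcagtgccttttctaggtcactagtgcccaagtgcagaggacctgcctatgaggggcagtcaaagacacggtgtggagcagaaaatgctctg
Syne3: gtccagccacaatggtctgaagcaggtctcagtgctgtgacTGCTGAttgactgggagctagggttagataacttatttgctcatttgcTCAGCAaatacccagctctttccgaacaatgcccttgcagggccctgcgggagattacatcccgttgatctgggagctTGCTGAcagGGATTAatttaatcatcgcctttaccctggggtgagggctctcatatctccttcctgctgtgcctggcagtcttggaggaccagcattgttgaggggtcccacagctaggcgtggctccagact
Gm29904: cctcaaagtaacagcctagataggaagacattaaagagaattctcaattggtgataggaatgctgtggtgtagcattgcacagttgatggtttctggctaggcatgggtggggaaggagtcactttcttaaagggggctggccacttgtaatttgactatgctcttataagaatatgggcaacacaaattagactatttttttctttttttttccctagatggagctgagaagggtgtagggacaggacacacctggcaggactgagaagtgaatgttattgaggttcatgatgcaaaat
Pcdh15: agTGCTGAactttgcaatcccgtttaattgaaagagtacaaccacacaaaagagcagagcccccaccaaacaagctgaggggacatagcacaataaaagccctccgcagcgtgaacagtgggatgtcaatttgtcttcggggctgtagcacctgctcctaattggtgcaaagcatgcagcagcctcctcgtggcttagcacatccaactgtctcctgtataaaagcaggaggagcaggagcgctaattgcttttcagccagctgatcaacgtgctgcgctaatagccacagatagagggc

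Gm2233 had 1 TAATCC, Syne3 had 1 TAATCC and 3 TGCTGA, Pcdh15 had 1 TGCTGA, and Gm29904 had neither. Of all 32851 RefSeq windows of this length, 7.06% held TAATCC and 19.5% held TGCTGA. Among the 31 windows of called features, 6 held TAATCC (19.4%) and 10 held TGCTGA (32.3%). Among the 117 windows of uncalled features, 9 held TAATCC (7.69%) and 20 held TGCTGA (17.1%). A match is a description of the letters and not of binding.

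Non-coding transcription differed between the genotypes in many of these domains. Of the 9938 tested features, 929 were called higher and 1057 lower in Nrl knock-out retinas. The test was limma on log2(normalised count + 1), Nrl knock-out minus wild-type, with a call at a Benjamini-Hochberg adjusted p below 0.05 over all 21395 tested features. The 1986 calls were 20% of the tested members, against 28.1% of all tested features. By direction the shares were 9.35% higher and 10.6% lower, against 15.6% and 12.6% over all features. The groups did not overlap for 1337 members (13.5%), against 20.2% of all tested features. Over the 11396 tested features of domains that list at least 1 changed mRNA, 4019 were called (35.3%).

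The share of called features stood below that of the other domains at every level and in every kind of place examined. Among features with a mean of 5 to 20 normalised counts it was 14.8% in domains without a listed mRNA and 27.3% in domains with one. It was 25.7% and 45.6% at 20 to 100 normalised counts, and 34.7% and 51.0% at 100 or more. Of intergenic members 19.2% were called, against 34.4% of intergenic features elsewhere. Of members antisense to a coding gene 25.3% were called, against 38.1% elsewhere, and of members within annotated non-coding genes 18.2%, against 31.1%. Features lying on the strand of a coding gene were called in 3.95% of 405 cases, against 19.9% elsewhere. Such features can hold reads of the gene's own transcript, and the rule leaves out domains with a listed changed mRNA. Their low share may therefore be set in part by the rule. The labels and headers do not say whether counting used strand, so reads of an antisense feature cannot be told apart with certainty from those of the gene opposite it.

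**Figure D1:**
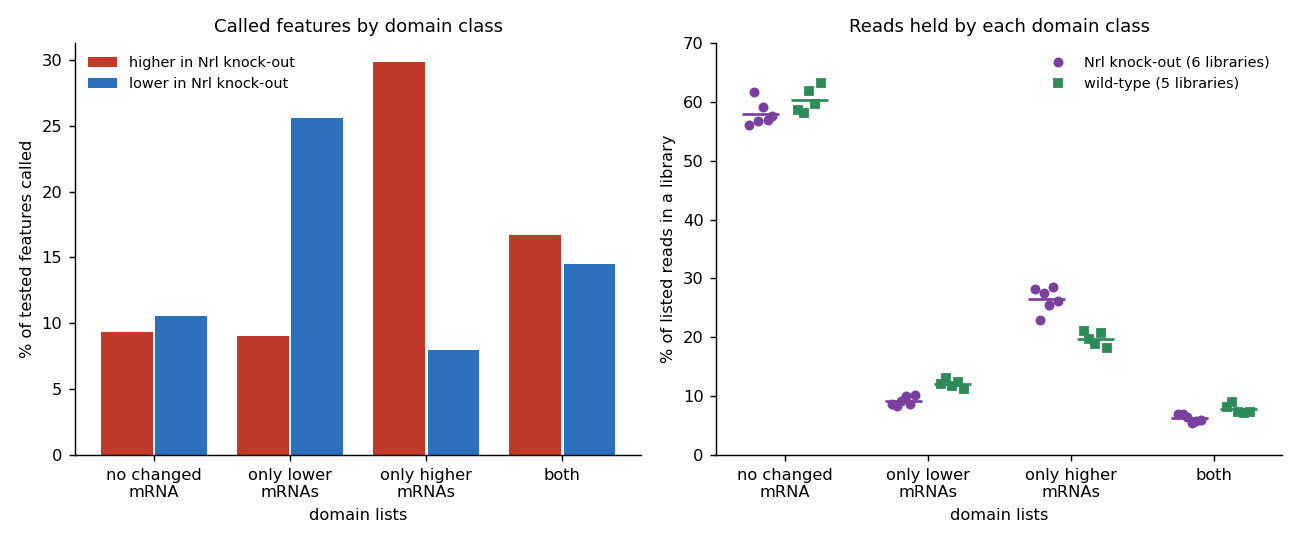
Left, percent of tested features called higher or lower in Nrl knock-out for the 4 classes of domain, by the mRNAs the table lists. Right, percent of listed normalised counts per library in each class, with circles for the 6 Nrl knock-out libraries left of squares for the 5 wild-type libraries and a line at each mean. Domains listing no changed mRNA had 9.35% of tested features called higher and 10.6% lower.

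Large differences were fewer among the members, and the largest were mostly losses. Of the 9938 tested members, 739 were called and at least 2-fold higher and 711 at least 2-fold lower, on the log2 scale with the pseudocount. Of all 21395 tested features, 2746 and 2040 were. Called differences of at least 16-fold were found for 15 higher and 81 lower members. They were found for 129 and 263 of the 11396 tested features in domains that list a changed mRNA, and for 144 and 346 of all tested features. The median absolute log2 difference was 0.38 over the tested members and 0.52 over the tested features of the other domains. The median signed difference was −0.08 over the members and −0.02 over all tested features.

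The domains together held 58.0% ± 2.09 of all listed normalised counts in Nrl knock-out libraries (SD, n = 6) and 60.2% ± 2.16 in wild-type libraries (SD, n = 5). The 6 Nrl knock-out libraries stood at 56.0%, 61.6%, 56.6%, 59.1%, 56.8% and 57.6%, and the 5 wild-type libraries at 58.6%, 58.1%, 61.8%, 59.6% and 63.1%. The groups overlapped, and the difference of −2.27 percentage points had an exact two-sided permutation p of 0.113 over 462 splits. Without Nrl knock-out replicate 2, the library at 61.6%, the difference was −3.00 with an exact permutation p of 0.0317 over 252 splits. This was the largest difference of 11 runs that each left out 1 library, which ranged from −3.00 to −1.55. Replicate 2 held 733423 normalised counts of the ribosomal MSTRG.39224, against 12906 to 86714 in the other Nrl knock-out libraries. The part of that feature in the share was not tested. The share in domains listing only higher mRNAs was 26.5% in Nrl knock-out and 19.7% in wild-type (exact permutation p adjusted over 4 classes 0.00577).

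Most of the strongest gains among the members were of RNAs with at most a few reads in wild-type retinas, and MSTRG.9061 was an exception. It is intergenic on chromosome 10 between 60885535 and 60896078 in TAD_1516, with no coding gene over it. It had 607, 781 and 902 normalised counts as lowest, median and highest Nrl knock-out library, against 20.6, 16.0, 13.9, 16.4 and 23.2 in the wild-type libraries. The groups lay far apart, with means of 762 ± 113 and 18.03 ± 3.77 (SD, n = 6 and 5), a 42.3-fold higher level and a log2 difference of 5.33 ± 0.18 (SE, adjusted p = 4.02e-18, limma). MSTRG.60458 lies opposite an intron of Klhl32 on chromosome 4, from 24643530 to 24643822. It stood at 39.4, 59.2 and 63.3 in Nrl knock-out, and was at 0 in 4 wild-type libraries and at 0.941 in wild-type replicate 2 (log2 difference 5.61, adjusted p = 7.47e-14, limma).

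Most of these gains lay inside introns of coding genes, on the opposite strand. MSTRG.58116, opposite an intron of the potassium channel gene Kcnd3 on chromosome 3, had 17.4, 39.6 and 65.6 in Nrl knock-out and at most 1.01 in wild-type. MSTRG.49617, opposite an intron of Dcaf17 on chromosome 2, had 16.6, 39.3 and 62.9 in Nrl knock-out and 0 in all wild-type libraries but replicate 2, at 0.941. The groups of neither feature overlapped.

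MSTRG.24130, opposite an intron of Cap2 on chromosome 13, had 34.9, 50.3 and 69.7 in Nrl knock-out, against 6.86 in wild-type replicate 1 and 0 to 0.928 in the other 4. The intergenic MSTRG.92495 has its midpoint 49659 bp from the annotated start of Onecut1, a transcription factor gene of horizontal and other early retinal cells. It had 22.0, 41.2 and 65.6 in Nrl knock-out, against 0, 0.941, 0.928, 0 and 2.02 in wild-type (log2 difference 4.67, adjusted p = 6.08e-11, limma). MSTRG.33139 in TAD_2182 had 13.7, 24.6 and 43.2 in Nrl knock-out and was at 0 in all wild-type libraries but replicate 4, at 0.967. For features at or near 0 in a group the log2 difference depends on the pseudocount, and no fold is given.

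Among the deepest losses were RNAs of high level in wild-type that were low but still measured in every Nrl knock-out library. MSTRG.17940 lies opposite an exon of Sec14l1 on chromosome 11, from 117156148 to 117165704. It had 43.4, 52.9 and 62.2 in Nrl knock-out, against 7432, 5351, 6461, 5291 and 6559 in wild-type. Its level was 117-fold lower (log2 difference −6.85 ± 0.16, SE, adjusted p = 3.57e-21, limma). MSTRG.20290 belongs to Gm47647, a transcribed processed pseudogene on chromosome 12, from 58922824 to 58952995, and reads of a pseudogene can be shared with its parent gene. It had 11.1, 15.9 and 34.3 in Nrl knock-out, against 2958, 1993, 2266, 1844 and 1973 in wild-type, and was 121-fold lower (log2 difference −6.93).

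Further losses, to a few reads or none, lay opposite exons of coding genes. MSTRG.929, opposite Dst, a gene of a large cytoskeletal linker protein, had 0, 1.28 and 2.93 in Nrl knock-out, against 296, 195, 239, 217 and 253 in wild-type. MSTRG.8789, opposite Dcbld1, had 0, 0.758 and 5.05 in Nrl knock-out, against 220.0 to 240.0 in wild-type. MSTRG.36044, opposite Senp7, which encodes a SUMO protease, had 0, 1.46 and 5.81 in Nrl knock-out and 213 to 273 in wild-type. The 3 log2 differences were −6.88, −6.95 and −6.50, and the groups of each were apart. In bulk retina, fewer cells of a type and less RNA per cell cannot be told apart, here or below.

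Intergenic losses were as deep. MSTRG.36853 on chromosome 16, with its midpoint 197148 bp from the annotated start of Runx1, was at 0 in 5 Nrl knock-out libraries and at 1.01 in the other, against 171, 105, 126, 89.0 and 104 in wild-type. MSTRG.98260 on chromosome X, near Cldn34a, averaged 0.643 ± 0.503 in Nrl knock-out and 512 ± 64.2 in wild-type (SD, n = 6 and 5). MSTRG.80767 on chromosome 7, with its midpoint 1068 bp from the annotated start of the tight junction gene Tjp1, averaged 0.761 ± 0.746 in Nrl knock-out and 520.0 ± 94.5 in wild-type. These 2 had the largest absolute log2 differences of all members, −8.34 and −8.30. MSTRG.80767 is 1988 bp long, so 1 of its ends lies close to the Tjp1 start. Whether its RNA is part of a Tjp1 transcript was not tested.

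**Figure D2:**
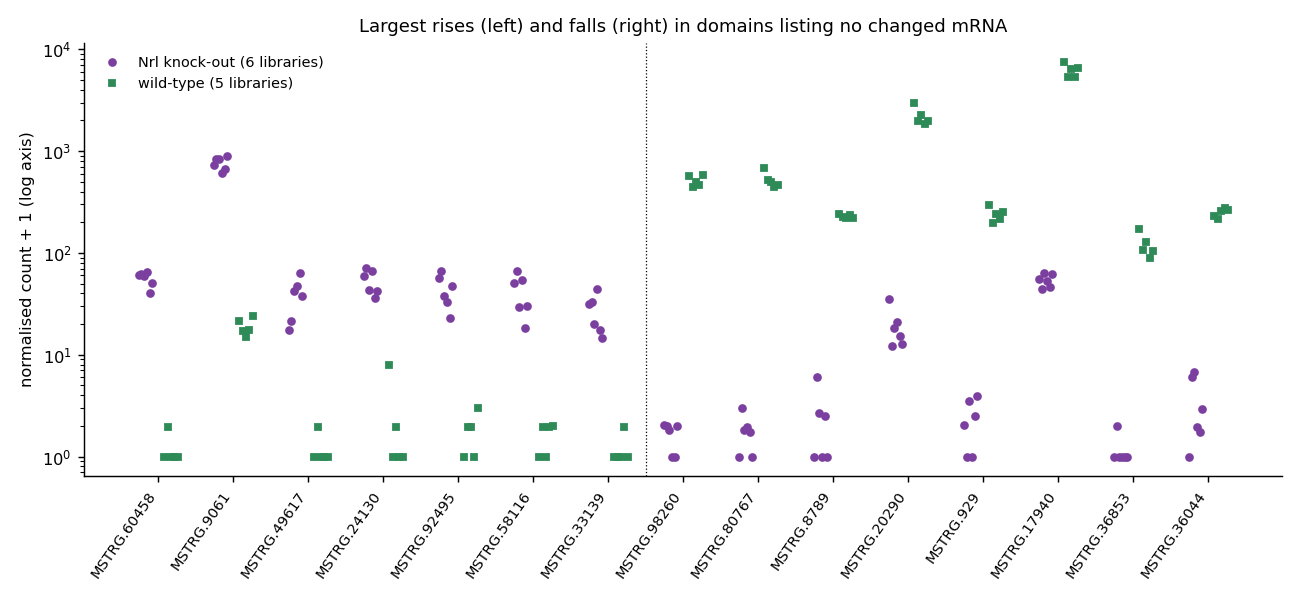
Normalised counts plus 1, on a log axis, of 7 of the 8 member features with the largest called rises (left) and the 8 with the largest called falls (right), at most 2 per domain, with 1 point per library and the 6 Nrl knock-out libraries left of the 5 wild-type libraries for each feature. MSTRG.9061 is the only rise shown with all wild-type libraries above 10 normalised counts.

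Across all 11 libraries, the features most like MSTRG.60458 by Pearson correlation of log2 values were MSTRG.86063 opposite Tenm3 (r = 0.995), the intergenic MSTRG.11081 (0.994) and MSTRG.29912 (0.993). MSTRG.86063 averaged 3000.2 in Nrl knock-out and 245 in wild-type. Most like MSTRG.98260 were MSTRG.17940 (0.997), MSTRG.10754 of Gm48505 (0.996) and MSTRG.43947 (0.996). MSTRG.10754 averaged 1490.3 in Nrl knock-out and 6264 in wild-type. All of these features share the difference between the groups, and the correlations describe that.

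Each domain was also taken as a whole, by the sum of its once-listed features in each library. Of 1554 domain totals tested, 204 were called higher and 267 lower, 30.3% in all, against 39.6% of the totals of all 2745 domains. With libraries scaled to an equal median domain total the split was 273 higher and 211 lower, so the balance of directions depends on the scaling. Totals did not overlap between the groups in 299 domains (19.2%), against 28.2% over all domains. Of the 1493 domains with a tested feature, 683 had at least 1 call (45.7%, against 59.5% over all domains). In 265 of these the calls were only higher, in 294 only lower and in 124 of both directions.

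In 810 of the 1493 domains with a tested feature no feature was called. In the others calls were mostly few, and a small number of domains held many. A single call was all there was in 324 domains, and 27 domains had at least 10 calls. The 6 domains with most calls held 192 of the 1986 (9.67%) among 310 tested features. Features within 10000 bp of each other on a strand were joined into runs, since neighbouring assembled features can be pieces of 1 transcript. The 929 higher features formed 627 runs and the 1057 lower ones 715.

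**Figure D3:**
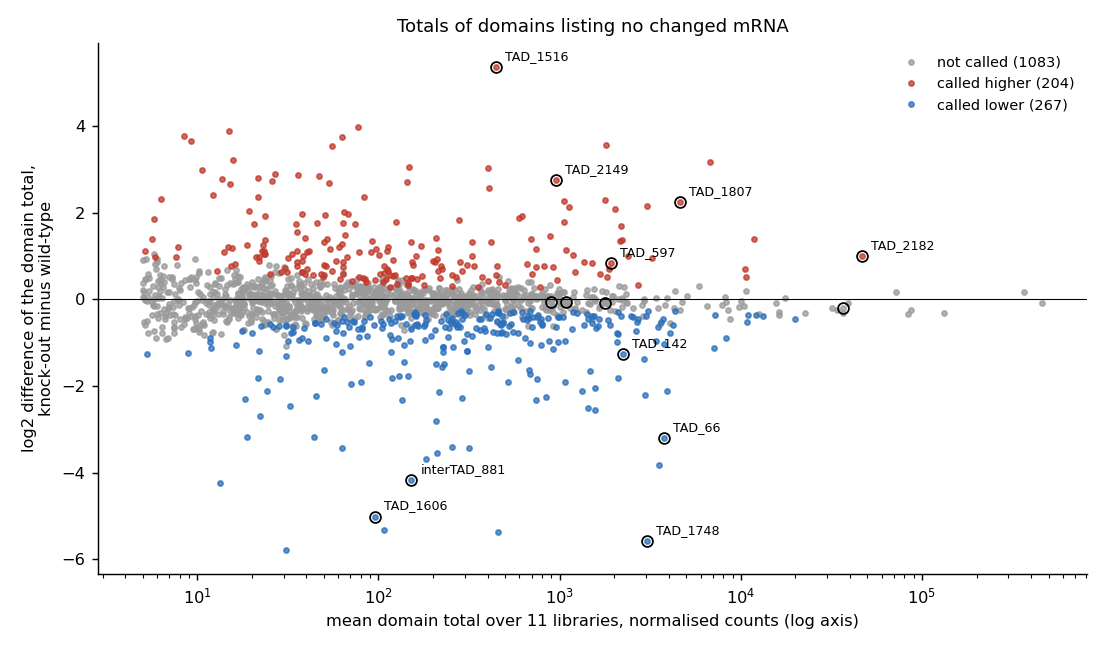
Log2 difference of each tested domain total, Nrl knock-out minus wild-type, against its mean total over the 11 libraries, on a log axis. Of the 1554 totals, 204 were called higher and 267 lower, and the domains named in the text are circled.

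Most calls of any domain lay in TAD_1807 on chromosome 12, which had no annotated coding gene within the span of its features, 68207276 to 69154423. Of its 49 tested features 38 were higher and 3 lower in Nrl knock-out. Its total was 6034, 7071 and 8837 normalised counts as lowest, median and highest Nrl knock-out library, against 1753, 1434, 1457, 1441 and 1502 in wild-type. The groups were apart, and the total was 4.75-fold higher (log2 difference 2.24, 95% interval 1.99 to 2.49, adjusted p = 9.69e-11, limma over domain totals).

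The rise in TAD_1807 was carried mostly by the minus strand. A run of 17 features from 68359333 to 68399187 had all 17 higher and averaged 670 in Nrl knock-out and 66.4 in wild-type, 10.1-fold higher. The run before it, from 68322655 to 68344515, had all 9 higher, at 391 and 32.6, 11.98-fold higher. The run after it, from 68413837 to 68486919, had all 7 higher, at 3271 and 407, 8.04-fold higher. The non-coding RNA Gm47489 (MSTRG.20487) had 1391, 1527 and 1845 in Nrl knock-out, against 165, 167, 193, 185 and 186 in wild-type. Gm47456 (MSTRG.20473) averaged 619 in Nrl knock-out and 77.4 in wild-type. On the plus strand, 3 features between 68463302 and 68469131, inside the span of that last minus-strand run, were lower, at 82.0 in Nrl knock-out and 149 in wild-type. Another plus-strand run, from 68599878 to 68610192, had 2 of 4 features higher and 0 lower. It averaged 129 in Nrl knock-out and 67.4 in wild-type.

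TAD_1807 had an uncalled end as well. Gm47515 (MSTRG.20505) averaged 286 in Nrl knock-out and 376 in wild-type, a log2 difference of −0.40 that was not called (adjusted p = 0.187, limma). The next domain, TAD_1808, lists higher mRNAs, and 16 of its 33 tested features were higher and 1 lower.

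TAD_2182 on chromosome 15, from 86446685 to 87562200, held stretches that moved in opposite directions, with 22 features higher and 18 lower of 80 tested. Its total was 48765, 64809.5 and 69487 in Nrl knock-out, against 34928, 27909, 30384, 28019 and 29730.5 in wild-type, 2.01-fold higher (log2 difference 1.00, adjusted p = 3.19e-05). A large part of that total was the non-coding RNA A930001M01Rik (MSTRG.33137), which averaged 41330.3 ± 7884 in Nrl knock-out and 15992 ± 2065 in wild-type (log2 difference 1.35, adjusted p = 3.34e-08). With each feature weighted equally the domain's difference was 0.39 and was not called (adjusted p = 0.0511, limma).

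Along the plus strand of TAD_2182 the direction changed. Between 86590911 and 86814483, 14 of 15 features were higher, and the run averaged 9568 ± 917 in Nrl knock-out and 1365 ± 255 in wild-type (SD, n = 6 and 5). Within it 4930543I03Rik (MSTRG.33167) had 2562, 3940.5 and 5255 in Nrl knock-out, against 640.5, 386, 384, 369.5 and 370.2 in wild-type. Between 87097514 and 87253778, 12 of 37 features were lower and the other 25 were not called, at 2251 ± 851 in Nrl knock-out and 3372 ± 878 in wild-type for the run. The last 4 features, at Fam19a5, were not called. The following domain, TAD_2183, lists no mRNA either and had 27 tested features with 0 calls by limma.

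TAD_2149 on chromosome 15 spans 61119350 to 62770556, with the proto-oncogene Myc as its coding gene. All but 1 of its 24 tested features were higher in Nrl knock-out. Its total was 1025, 1540.3 and 2082 in Nrl knock-out, against 143, 205, 226, 257 and 313 in wild-type, 6.82-fold higher (log2 difference 2.75, adjusted p = 1.55e-08). A plus-strand run from 61119965 to 61190263 had 19 of 19 features higher and averaged 1396 in Nrl knock-out and 203 in wild-type.

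Within that run Gm38563 (MSTRG.31829) had 53.5, 90.2 and 128 in Nrl knock-out, against 5.49, 17.9, 16.7, 21.3 and 9.08 in wild-type. Farther along, Gm29904 (MSTRG.31853), whose promoter window held neither motif, had 16.7, 24.7 and 33.3 in Nrl knock-out, against 1.37, 3.76, 3.71, 0.967 and 4.03 in wild-type (adjusted p = 9.06e-08, limma). MSTRG.31861 was the uncalled feature, with a log2 difference of 0.05. The domain before it, TAD_2148, lists A1bg as a higher mRNA and had a total 2.58 higher on the log2 scale.

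TAD_597 on chromosome 4, from 30932505 to 31851137, had a shallower change over many features. No coding gene lies in its span, and 33 of 81 tested features were higher with 0 lower. The total was 1893, 2386 and 3083 in Nrl knock-out, against 1014, 1219, 1409, 1414 and 1679.5 in wild-type, 1.78-fold higher (log2 difference 0.84, adjusted p = 0.000119). The next domain, TAD_598, lists the transcription factor mRNA Bach2 as higher, and 7 of its 10 tested features were higher. The domain before, TAD_595, lists no mRNA and had 5 of 13 tested features lower. Neighbouring domains along this chromosome thus had calls in opposite directions.

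Loss over many features was seen in TAD_142 and TAD_66 on chromosome 1. TAD_142, from 140817303 to 143595299, had 25 of 45 tested features lower and 0 higher. Its total was 1215, 1325 and 1596 in Nrl knock-out, against 3029.5, 3021, 3688, 3347 and 3283 in wild-type (log2 difference −1.25, adjusted p = 3.56e-08). A minus-strand run from 142959187 to 143172259 had 15 of 16 features lower. It contains Gm5835 (MSTRG.5066), at 363, 419.5 and 504 in Nrl knock-out and 929.8, 1009, 1203, 1115 and 1031 in wild-type. The 12 tested features of 3 minus-strand runs between 142029255 and 142112373 were not called. TAD_66, which lies over Vwc2l, had 30 of 31 features lower, with a total of 547, 838 and 906 in Nrl knock-out against 5408 to 8641 in wild-type.

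**Figure D4:**
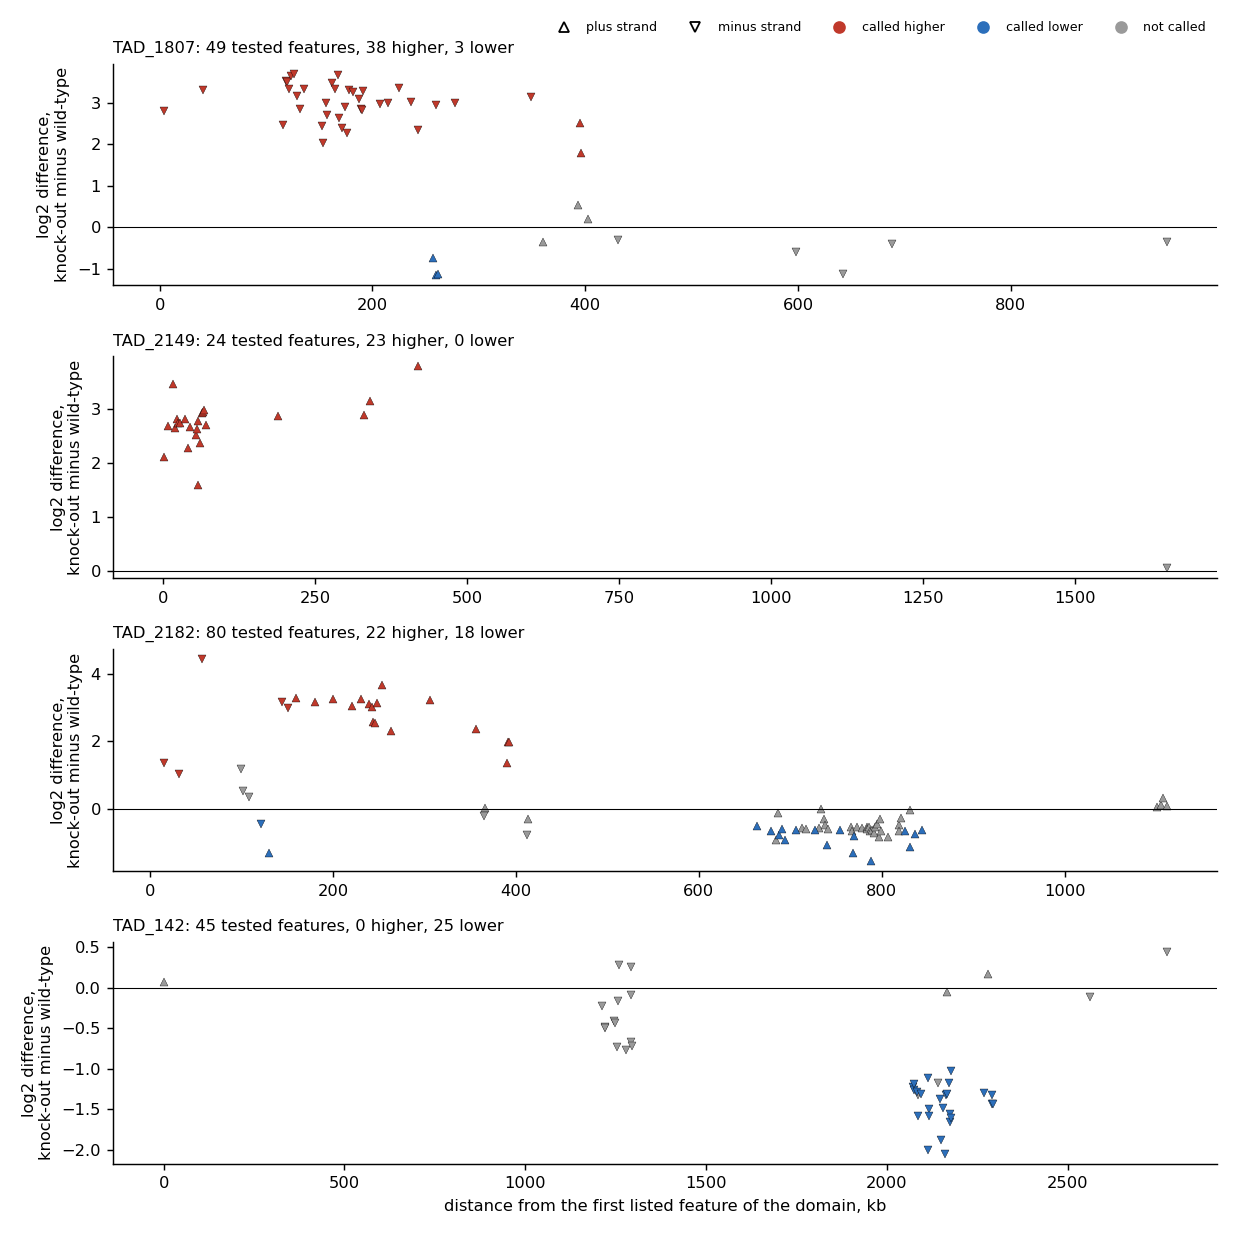
Log2 difference of each tested feature, Nrl knock-out minus wild-type, by distance in kb from the first feature of TAD_1807, TAD_2149, TAD_2182 and TAD_142, with triangles for strand and colours for the call. Higher features lie in the first part of TAD_1807 and of TAD_2149, TAD_2182 has a higher stretch followed by a lower one, and TAD_142 has its lower features towards the far end.

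Small domains held the largest differences of totals. TAD_1516, the domain of MSTRG.9061, had all 3 tested features higher, with a total of 637, 815 and 949 in Nrl knock-out against 20.6, 17.9, 13.9, 16.4 and 24.2 in wild-type, 43.1-fold higher (log2 difference 5.37). The domains on its sides both list lower mRNAs. They are Cdh23, which encodes a cadherin of photoreceptors and hair cells, with Chst3 and Ddit4, and on the other side Ppa1. TAD_1748, the domain of Sec14l1, had 5 features lower and 2 higher, with a total of 111, 139 and 144 in Nrl knock-out against 7798, 5619, 6702, 5524 and 6777 in wild-type, 48.3-fold lower. Its higher MSTRG.17929 averaged 43.3 in Nrl knock-out and 5.60 in wild-type.

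In TAD_1606 on chromosome 11 all 3 features were lower, among them MSTRG.12323, opposite the non-coding RNA Gm12001. The total was 2.49, 5.68 and 7.28 in Nrl knock-out, against 293, 179.7, 201, 159 and 191 in wild-type (log2 difference −5.01). The domains on its sides list Grb10, a gene of an adaptor of insulin signalling, as lower and Egfr as higher. All 6 features of interTAD_881 on chromosome 15, at Gm33497, were lower, with a total of 8.79, 17.5 and 26.0 in Nrl knock-out against 446, 278, 277, 308 and 262 in wild-type. Both domains beside it list a higher mRNA, Nipal2 and Rgs22. In all, 20 domains had every one of at least 3 tested features called, 10 all higher, 9 all lower and TAD_1748 of both directions.

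Of tested members in domains with 0, 1 and 2 neighbouring domains that list a changed mRNA, 19.2%, 21.4% and 17.9% were called. Members in TADs were called in 20.7% of cases and members between TADs in 14.9%. In the domains that list a changed mRNA the order was the other way, with 34.7% called in TADs and 49.0% between them. Chromosomes 15 and 1 had the highest shares, 31.1% and 29.9%. Without the 6 domains with most calls these shares were 23.2% and 25.2%, and the other chromosomes stood between 14.7% and 24.5%. The domains had few coding genes in the span of their features, with a median of 1 and none in 446 of 1680 (26.5%). The domains that list an mRNA had a median of 4, and 9.60% of them had none. A domain with fewer coding genes has fewer mRNAs that could be listed, so this contrast is in part set by the rule of membership. The span of the listed features also need not cover the whole domain.

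At the Gm2233 locus in TAD_1905 RNA of both strands was lower. Gm2233 (MSTRG.24050) had 31.9, 58.7 and 73.2 in Nrl knock-out, against 1306, 1008, 889, 752 and 785 in wild-type (log2 difference −4.08, adjusted p = 1.15e-14, limma). MSTRG.24049, which lies on the opposite strand and overlaps the start of Gm2233, averaged 8.04 in Nrl knock-out and 98.2 in wild-type. Elsewhere in the domain, Gm33195 (MSTRG.24044) averaged 148 in Nrl knock-out and 599 in wild-type. At the Syne3 promoter, MSTRG.22067 averaged 48.1 ± 9.66 in Nrl knock-out and 416 ± 81.5 in wild-type (log2 difference −3.09). Syne3 encodes nesprin-3, a protein of the nuclear envelope.

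Photoreceptor genes were represented in these domains by few loci. Of 28 rod genes in the list, 3 had tested member features, and 5 of the 9 features were lower, 0 higher and 4 not called. All 5 lower ones lay opposite Rp1, which encodes a microtubule protein of the photoreceptor axoneme. MSTRG.80 had 9.96, 19.1 and 29.1 in Nrl knock-out, against 171, 177, 91.9, 227 and 108 in wild-type (log2 difference −2.93, adjusted p = 2e-09, limma). MSTRG.77 had 102, 153 and 284 in Nrl knock-out, against 492, 725, 364, 584 and 319 in wild-type. The 3 features at Impg2, a gene of the matrix between photoreceptors, and 1 at Aipl1, which encodes a chaperone of rod phosphodiesterase, were not called. In domains that list a changed mRNA, 31 of 44 rod features were lower and 4 higher. Over all tested features 12.6% were called lower and 15.6% higher, and the 9 member features lay at only 3 genes.

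Of 17 cone genes 2 had tested members, and 3 of 6 features were higher, 0 lower and 3 not called. The higher ones lay in the non-coding gene Gm48321 at Thrb, which encodes the thyroid hormone receptor that directs the M-cone fate. MSTRG.26903 had 18.2, 27.1 and 49.9 in Nrl knock-out, against 17.8, 3.76, 7.42, 2.90 and 2.02 in wild-type, so the groups did not overlap although wild-type replicate 1 came within 1 count of the lowest Nrl knock-out library. In domains that list a changed mRNA, 15 of 24 cone features were higher and 3 lower. Among photoreceptor transcription factors, 7 of 18 member features were higher, 3 at Thrb and 4 at Esrrg, 2 were lower and 9 not called. In domains that list a changed mRNA, 7 of 24 features of that list were higher and 11 lower. Over all tested features 15.6% were called higher and 12.6% lower. Esrrg encodes an orphan nuclear receptor. MSTRG.6877, opposite an intron of Esrrg, had 81.9, 157 and 184 in Nrl knock-out, against 20.6, 8.47, 11.1, 14.5 and 11.1 in wild-type.

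Both lower member features of the transcription factor list lay at Casz1, a zinc finger gene that acts in photoreceptor differentiation. MSTRG.65363 had 1524, 2328 and 2931 in Nrl knock-out, against 6491, 4682, 4796, 4378 and 3759.6 in wild-type (log2 difference −1.04, adjusted p = 2.07e-05, limma). The groups were apart. The smaller MSTRG.65362 averaged 83.7 in Nrl knock-out and 247 in wild-type.

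Lists of other retinal cells had few tested members, between 0 and 11 each, too few to read their counts against the 28.1% called over all tested features. No feature was called by limma among 6 at bipolar genes (Trpm1, Grik1 and Isl1), 3 at amacrine genes, 1 at a ganglion cell gene and 11 at vascular genes (Tek and Ptprb). The lists of Müller glia, horizontal cells, microglia and erythrocyte and lens genes had 0 tested members. Trpm3, from the list of the retinal pigment epithelium, had 1 of 10 features lower. The 1 feature of the stress list, on the strand of Cebpd itself, was higher, at 554, 827 and 1202 in Nrl knock-out against 296, 218, 238, 159.6 and 227 in wild-type.

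Long neuronal adhesion and synapse genes supplied 247 tested features at 36 of 56 listed genes, of which 15 were higher, 23 lower and 209 not called. These calls compare with 28.1% called over all tested features and 20% over all tested members. Their median log2 difference was −0.19, against −0.02 over all tested features. Of features at Pcdh15, which encodes a protocadherin of photoreceptors and hair cells, 11 of 12 were higher. MSTRG.9470 had 92.9, 116 and 139 in Nrl knock-out, against 19.2, 28.2, 35.3, 37.7 and 32.3 in wild-type (log2 difference 1.91, adjusted p = 2.08e-08, limma). MSTRG.9468, which starts in the Pcdh15 promoter window, had 14.1, 31.9 and 49.5 in Nrl knock-out, against 10.97, 12.2, 5.57, 12.6 and 3.03 in wild-type.

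Losses at long genes were gathered in a few of them. All 7 features at Csmd1, a gene of a large complement-control protein, were lower, with log2 differences of −1.84 to −2.91. MSTRG.85023 at Csmd1 had 154, 187 and 268 in Nrl knock-out, against 653, 948, 936, 1008 and 1092 in wild-type. At Galntl6, of a glycosyltransferase family, 4 of 5 features were lower. MSTRG.86254, in the non-coding RNA Gm15882 there, had 165, 240.1 and 474 in Nrl knock-out, against 3873, 3008, 3788, 3667 and 3740.4 in wild-type. At Dmd, the dystrophin gene, 2 of 3 features were lower. MSTRG.96844 had 6.07, 16.4 and 26.0 in Nrl knock-out, against 583, 315, 382, 321 and 284 in wild-type (log2 difference −4.54, adjusted p = 2.83e-13, limma). The 48 features at Rbfox1, 17 at Robo1 and 15 at Kcnip4 were not called.

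Among listed long non-coding RNAs, 9 of 56 features were lower and 47 not called, where 12.6% of all tested features and 10.6% of tested members were lower. All 9 belonged to Snhg14, the host RNA of imprinted small nucleolar RNAs, with log2 differences of −0.42 to −0.51 and 35 tested features in all. The 17 features of Sox2ot, 3 of Airn, the antisense RNA of Igf2r, and 1 of Meg3 were not called.

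The remainder of the features held no call, and the interval of the difference says how far that can be read. Of the 7952 uncalled members, 4335 (54.5%) had a 95% interval of the log2 difference within 2-fold either way, against 53.8% of uncalled features over the whole table. Of the 1083 uncalled domain totals, 902 (83.3%) had such an interval, against 86.2% over all domains. In 810 domains with tested features none was called, 278 of them with 1 tested feature and 69 with at least 10. Of the 3192 tested features in those 810 domains 1886 (59.1%) had an interval within 2-fold, and 41 of the 810 totals were called although no feature was.

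Much of the RNA in these domains came from a few uncalled features. The 6 most abundant held 33.7% to 62.4% of the members' values in Nrl knock-out libraries (median 44.7%) and 36.7% to 53.1% in wild-type (median 43.1%). MSTRG.7707 on chromosome 10, from 11491975 to 11492257, had 232080.5, 390522 and 546258 in Nrl knock-out, against 498086, 284965, 302454, 313933 and 269979 in wild-type (log2 difference 0.18, 95% interval −0.22 to 0.58). The groups overlapped widely. Gm26917 (MSTRG.39223) on chromosome 17 lies opposite CT010467.1 (MSTRG.39224), annotated as ribosomal RNA, a sequence with many near-identical copies. MSTRG.39223 spans the whole of MSTRG.39224, and whether counting used strand is not known. Their reads therefore cannot be told apart with certainty, and those of MSTRG.39223 may be ribosomal as well. MSTRG.39224 had 12906, 43338 and 733423 in Nrl knock-out, against 74652, 18768, 204435, 123135 and 331363 in wild-type, and its interval of −3.46 to 1.63 left its difference undetermined.

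Gm26954 (MSTRG.66281), a non-coding RNA inside Pclo, which encodes the presynaptic protein piccolo, stood nearest to a call among these 6. It had 61229, 69918 and 95436 in Nrl knock-out, against 121375, 82267, 92203, 79414 and 88623 in wild-type. The log2 difference was −0.34 (95% interval −0.63 to −0.04, adjusted p = 0.0823, limma), and the adjusted p was 0.0330 without Nrl knock-out replicate 1.

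Among the domains with no called feature, TAD_1462 on chromosome 10, from 8889176 to 9746581, had the most tested features, 69. Its total was 24074, 36401 and 43661 in Nrl knock-out, against 23911, 40641, 40340.3, 43973 and 49049 in wild-type (log2 difference −0.21, 95% interval −0.64 to 0.23). Feature differences ranged from −0.71 to 0.95, 3 of the 69 had an unadjusted p below 0.05 by limma, and 46 (66.7%) had an interval within 2-fold. The non-coding RNA Gm48751 (MSTRG.7532) there averaged 7610.1 ± 1465 in Nrl knock-out and 8760.2 ± 1966 in wild-type (SD, n = 6 and 5). The domains on its sides list Lrp11 and Stxbp5 as higher mRNAs.

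TAD_1448 on chromosome 9, from 117631780 to 117937348, had 63 tested features with differences of −0.82 to 1.16, of which 2 had an unadjusted p below 0.05 and 38 (60.3%) an interval within 2-fold. Its total was 1111, 1703 and 2681 in Nrl knock-out, against 1279.6, 1835, 1487, 2195 and 2262 in wild-type. The wide spread within each group left an interval of −0.55 to 0.37. In interTAD_502 on chromosome 8, from 20046986 to 20679986, the 44 tested features included those of the non-coding genes 6820431F20Rik and 2610005L07Rik. The spread there was narrower, with 1016, 1039 and 1156 in Nrl knock-out against 1233, 951, 1104, 1201 and 1050.1 in wild-type, and the interval was −0.27 to 0.14. Of the 44 features 5 had an unadjusted p below 0.05, and 30 (68.2%) had an interval within 2-fold.

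TAD_1595 on chromosome 10, from 130232506 to 130579501, had 6 coding genes in its span and no call among 32 tested features. Of these 4 had an unadjusted p below 0.05 by limma, and 15 (46.9%) had an interval within 2-fold. The genes include Neurod4, a transcription factor gene of developing retinal neurons, Tespa1 and pheromone receptor genes. The total was 764, 846 and 1017 in Nrl knock-out, against 824, 968, 973, 849 and 936 in wild-type (log2 difference −0.05, 95% interval −0.27 to 0.17). At Neurod4, MSTRG.11848 averaged 32.6 ± 5.97 in Nrl knock-out and 32.7 ± 9.52 in wild-type (SD, n = 6 and 5).

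**Figure D5:**
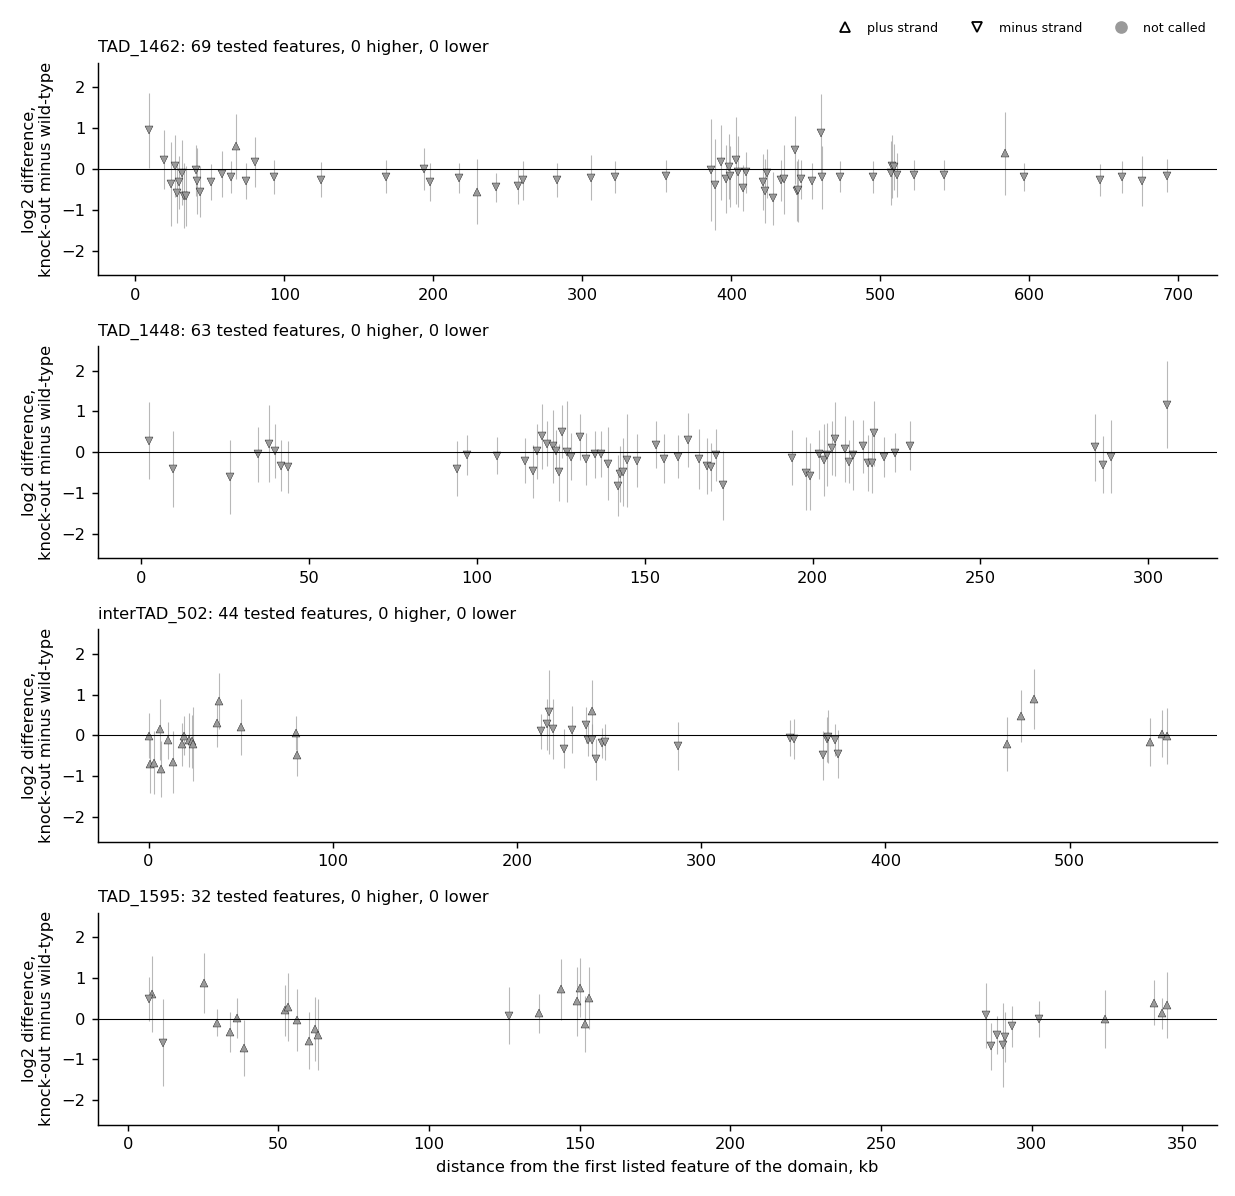
Log2 difference with its 95% interval for each tested feature of TAD_1462, TAD_1448, interTAD_502 and TAD_1595, Nrl knock-out minus wild-type, in chromosomal order. None of the 69, 63, 44 and 32 features was called, and the horizontal line marks no difference.

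On the whole reads of 9 libraries, edgeR called 912 members higher and 911 lower, with 26.8% of all tested features called, and DESeq2 called 825 higher and 925 lower, with 25.6% of all. The authors' deposited table gives a further comparison of the libraries. By the adjusted p of the authors' deposited table, 2243 members passed 0.05, 1062 higher and 1181 lower, against 19.4% of all listed features past that threshold. Of the 1986 members called by limma, 1774 were among those in the authors' deposited table, all 1774 with the same sign.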

How the data were processed

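Retina RNA depleted of polyadenylated transcripts was sequenced in 6 Nrl knock-out and 5 wild-type libraries. The deposited signal values are mm10 read counts that the authors divided by 1 DESeq2 size factor per library, per the file headers. Builds mm9 and mm10 and the tools Cuffdiff, Cufflinks 2.2.1 and TopHat2 2.0.10 stand in the submitters' processing notes, without roles. Which assembler and counter were used, and whether with strand, are points not given in the sources used here. From the authors also come a deposited log2 fold change, a deposited Wald score, whose sign is opposite to it, and deposited p-values.

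Of 36180 lines, 83 features with 2 lines were left out of the domain classes and the domain totals. Each of them was kept once among all features. Positions count from 1, since the table's starts are 1 lower than GENCODE M21 starts in 140 of 140 matched features. Features with a mean of at least 5 were tested with limma 3.58.1 (lmFit, eBayes with trend and robust, R 4.3.3) on log2(value + 1), two-sided, all 11 libraries, group as the only term. P-values were adjusted over all 21395 features, or over 2745 domain totals. The pseudocount understates changes of low features. In simulated data of 21395 features limma recovered 38 of 93 2-fold and 102 of 107 4-fold changes with 2 false calls. No other feature was changed there, and all had the same dispersion. In the real data 28.1% of tested features were called, so these rates do not carry over to them.

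With a tolerance of 0.001, 100% of values were whole multiples of 1 read. Count tests by edgeR 4.0.16 and DESeq2 1.42.0 took the recovered reads of 9 libraries, without Nrl knock-out replicate 2 and wild-type replicate 5, whose size factors lie so near 1 that the recovery is not distinctive. Named features are the 8 largest called rises and falls without overlap (at most 2 per domain) and the 6 most abundant uncalled ones; 1 of the rises is not reported here. Named domains are the 6 with most calls, the 4 largest called totals with at least 3 tested features, and the domains with most tested features and 0 calls. Features named at gene lists, promoters and within domains were chosen after their values were seen. The members and lists were chosen with earlier results of these data known. Alternatives covered pseudocounts, filters, scaling, tools, thresholds and libraries left out. The planned sequences of the features themselves are not used here, and RefSeq windows stand in for them.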

Additional observations from a re-analysis of the deposited data

Results flagged for a closer look

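Values of 1 library far from the rest of its group were found in 12 of 74 groups of values examined, by a 95% critical value that flags about 1 in 20 groups of continuous values by chance. The rate for values this close to 0 was not examined, and 4 of the 12 rest on 1 read against zeros. Wild-type replicate 2 stood at 0.941 normalised counts for MSTRG.60458 and for MSTRG.49617, with the other wild-type libraries at 0. Wild-type replicate 4 stood at 0.967 for MSTRG.33139 and Nrl knock-out replicate 2 at 1.01 for MSTRG.36853, with the rest of their groups at 0.

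For MSTRG.24130 wild-type replicate 1 stood at 6.86, against 0 to 0.928 in the other wild-type libraries. For MSTRG.8789 Nrl knock-out replicate 2 stood at 5.05, against 0 to 1.66 in the other Nrl knock-out libraries. Among abundant uncalled features, Nrl knock-out replicate 2 had 733423 for the ribosomal MSTRG.39224, against 12906 to 86714, and wild-type replicate 1 had 498086 for MSTRG.7707, against 269979 to 313933.

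Among domain totals, Nrl knock-out replicate 2 had 547 for TAD_66, against 784 to 906, and Nrl knock-out replicate 6 had 1156 for interTAD_502, against 1016 to 1066. Wild-type replicate 1 had 1753 for TAD_1807, against 1434 to 1502, and 446 for interTAD_881, against 262 to 308. The part of these libraries in the results was not tested beyond leaving each of them out.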

How the results depend on the processing

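At an adjusted p below 0.01, 704 members were lower and 697 higher. With only features of a mean of at least 20 tested, 1132 of 3698 members were called, 489 higher and 643 lower, a test of fewer features. In the main fit 25.7% of members were called at 20 to 100 normalised counts and 34.7% at 100 or more. In domains that list a changed mRNA these shares were 45.6% and 51.0%. Counts of members at other settings in this section are given without the share of all features at the same setting. Leaving out 1 library at a time gave 1744 to 2197 called members (851 to 978 higher, 887 to 1219 lower), 407 to 502 called domain totals (183 to 230 higher, 222 to 272 lower) and a difference in the share of listed reads of −3.00 to −1.55 percentage points. Without the 6 domains with most calls, a choice made after seeing the data, 1794 calls were left.

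Whether the replicate numbers pair the libraries is not shown. Deviations of same-numbered libraries correlated at 0.001 to 0.294, and those of differently numbered ones at −0.388 to 0.341. Not every library correlated best with its own number, and weak correlations of this kind cannot decide the question. With the replicate block, 2479 members were called (1102 higher, 1377 lower) and 563 totals (238 higher, 325 lower).

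Of 713 values of named features and domains under alternatives, 9 changed sign, all of uncalled results. The log2 difference of MSTRG.39223 was −0.10 by DESeq2, −0.053 by edgeR and −0.072 by limma on the same 9 libraries. That of TAD_1448 ranged from −0.23 (without Nrl knock-out replicate 5) to 0.028 (without replicate 2) with 1 library left out. With median scaling interTAD_502 was at 0.025 and TAD_1595 at 0.034, and TAD_1595 was at 0.017 with features weighted equally. MSTRG.66281 was called with no filter (adjusted p = 0.0330, limma) and with the replicate block (0.0163). The cause was not tested in any of these. Depth limits what is said of features with a few reads per library, and an uncalled feature is not shown to be unchanged.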
